A study of Mus musculus with 11 samples.

Results

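The 10 genes described here mark the epicardium, the mesothelial sheet that covers the heart: Wt1, Tbx18, Tcf21, Bnc1, Aldh1a2, Upk1b, Upk3b, Msln, Lrrn4 and Krt19. They were chosen by name from the table of counts, with earlier results of these data known, and are 10 of the 50600 genes it lists. All 10 passed the filter on low counts and are among the 15808 genes tested. The hearts were those of C57BL/6 mice that underwent pulmonary artery banding (PAB), a constriction of the vessel leaving the right ventricle, or were sham-operated, in both cases within 6 h of birth. P3 and P7 are postnatal days 3 and 7, and the 11 libraries were 3 of P3 sham, 3 of P3 PAB, 3 of P7 sham and 2 of P7 PAB hearts. Sham pups were cooled and their chest and pericardium were opened as in PAB pups, so that every group had an opened pericardium and none was without an operation. The tissue is heart in the labels and ventricles in the study's methods, and neither says whether a library held 1 or several hearts.

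The epicardium forms from cells that migrate onto the looped heart tube of the embryo. Some of its cells undergo an epithelial to mesenchymal transition and enter the myocardium as fibroblasts and mural cells, and the sheet secretes retinoic acid and growth factors that act on the myocardium beneath it. Its fetal genes decline after birth and are known to return after cardiac injury. The same genes are shared in part with other mesothelia, such as the pericardium and the pleura, and with cardiac fibroblasts and endothelial cells in the case of Tcf21 and Wt1. In RNA of whole tissue, fewer cells of a type and less RNA per cell cannot be told apart.

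From P3 to P7 Lrrn4, Msln and Bnc1 fell in both sham and PAB hearts, and Upk1b, Upk3b and Tbx18 were also called in PAB hearts, whereas Wt1, Tcf21 and Aldh1a2 stayed within a fold change of 1.5. At P3 no epicardial gene passed the test for PAB. At P7 Krt19 was higher and Upk3b and Lrrn4 were lower in PAB than in sham hearts, against 9.63% and 8.59% of all genes called. Each of these calls was lost in at least 1 alternative fit. At P7 the operation and the sex of the pups cannot be told apart. Lrrn4, which had been above sham in every P3 PAB library, was below sham in both P7 PAB libraries, and this difference between the ages passed the test for an interaction.

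Depth was 19274045 to 26820228 counts per library, and levels are given in CPM, the counts per 1e6 counted reads after TMM scaling. A count of 0 allows up to 3 counts, which was 0.114 to 0.148 CPM. The libraries also differed in 2 ways that the groups share. Xist was at 630 to 1061 CPM in the 3 P7 sham libraries and P3 sham replicate 1 and at most at 0.873 CPM in the other 7, in which the Y-linked gene Ddx3y was expressed, so that at P7 the operation and the sex of the pups cannot be told apart. In both P7 PAB libraries the log2 level relative to the mean of all libraries fell with gene length, with a slope of -0.154 and -0.143 per log2 of the exonic length, against -0.0277 to 0.0685 in the other 9. A gene was called, as higher or lower, by edgeR's quasi-likelihood test if it changed by 1.5-fold or more and its p, adjusted over all genes tested, was no more than 0.05. Groups whose libraries do not overlap are described below. The share of all genes tested that separate in this way was not counted. The 10 genes, their levels and the spread of each group are shown in the plot of CPM per library.

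**Figure D1:**
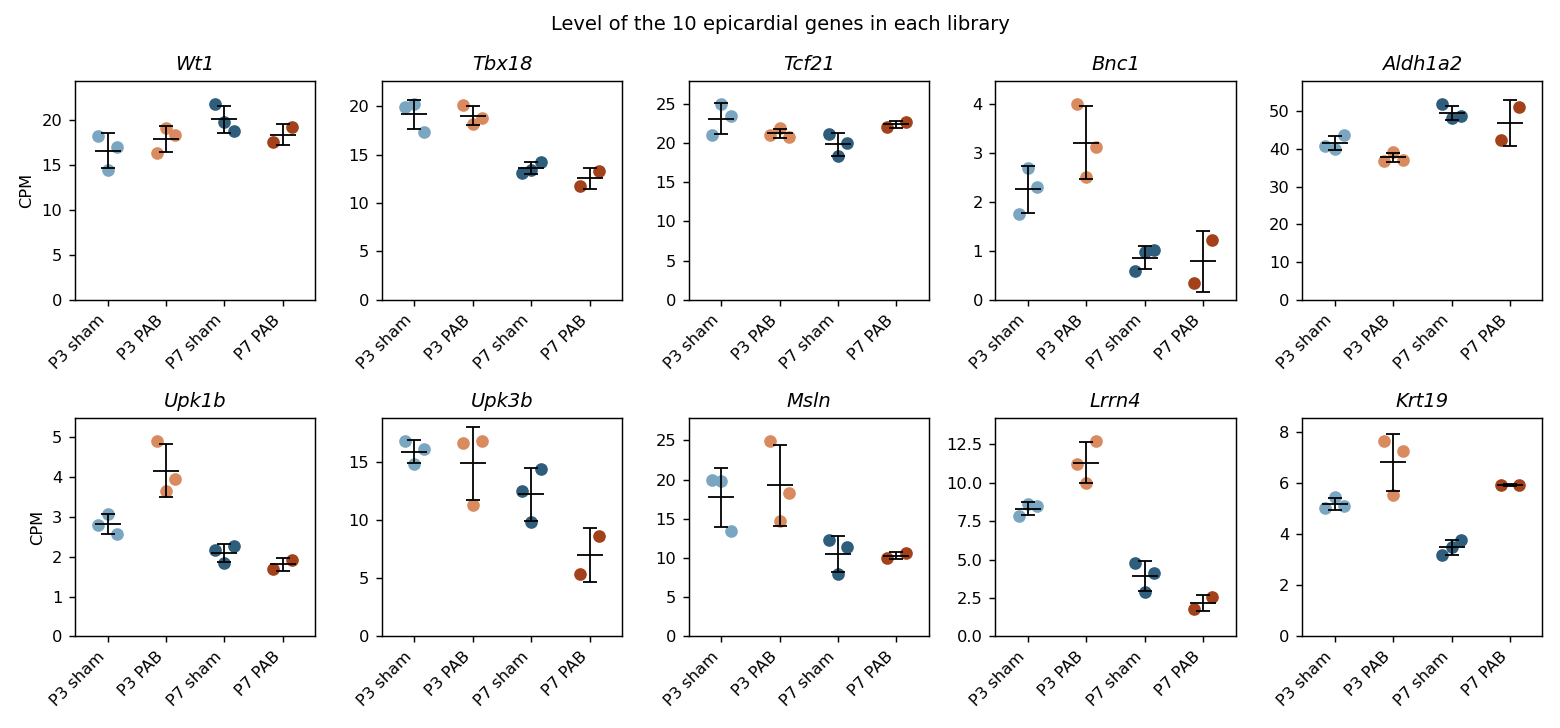
Level of each of the 10 epicardial genes, in CPM on a linear axis from 0, by group (n = 3 libraries, but n = 2 for P7 PAB). Points are libraries, the wide bar is the mean and the error bar is the SD. Lrrn4 lay at 10.0 to 12.7 CPM in P3 PAB and at 1.79 and 2.56 CPM in P7 PAB hearts, while Tcf21 stayed between 18.3 and 24.9 CPM in all libraries.

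The transcription factors come first. Wt1 is a zinc finger protein needed for the epicardial transition to mesenchyme and lies on chromosome 2 from 105126529 to 105173616, on the plus strand (all positions are those of GRCm38 in GENCODE M21). It was at 18.2, 14.4 and 17.0 CPM in the P3 sham libraries, at 16.3, 19.1 and 18.3 CPM in P3 PAB, at 21.7, 19.8 and 18.7 CPM in P7 sham and at 17.5 and 19.2 CPM in P7 PAB. The 3 P7 sham libraries were above all P3 sham libraries, and all other neighbouring groups overlapped. Tbx18, a T-box repressor of the early epicardium and of mural cell precursors, lies on chromosome 9 from 87702800 to 87731260, on the minus strand. It was at 19.9, 20.2 and 17.4 CPM in P3 sham, at 20.1, 18.2 and 18.8 CPM in P3 PAB, at 13.1, 13.4 and 14.3 CPM in P7 sham and at 11.8 and 13.3 CPM in P7 PAB. Every P7 library was below every P3 library, and at each age sham and PAB overlapped. Of its exons 970 bp are shared with D030062O11Rik on the opposite strand, which had 1 to 14 counts against 265 to 532 for Tbx18, and the strand setting of the counting is not given in the sources used here.

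Tcf21 is a basic helix-loop-helix factor of the epicardial lineage that becomes cardiac fibroblasts, and lies on chromosome 10 from 22817281 to 22820174, on the minus strand. It was at 21.0, 24.9 and 23.4 CPM in P3 sham, at 21.0, 21.9 and 20.8 CPM in P3 PAB, at 21.1, 18.3 and 20.0 CPM in P7 sham and at 22.0 and 22.7 CPM in P7 PAB. Both P7 PAB libraries were above the 3 P7 sham libraries. Bnc1, or basonuclin, is a zinc finger protein of mesothelial and basal epithelial cells on chromosome 7 from 81966672 to 81992292, on the minus strand, and it had few counts, 8 to 96 per library. It was at 1.76, 2.70 and 2.30 CPM in P3 sham, at 3.99, 2.51 and 3.13 CPM in P3 PAB, at 0.591, 0.972 and 1.01 CPM in P7 sham and at 0.349 and 1.23 CPM in P7 PAB. Its P3 libraries all lay above its P7 libraries, and the P7 PAB libraries spanned the whole range of P7 sham. It shares 98 bp of exon with 4833418N17Rik on the opposite strand, which had at most 1 count.

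Aldh1a2 encodes the enzyme that oxidizes retinaldehyde to retinoic acid, a signal of the epicardium to the growing ventricle, and lies on chromosome 9 from 71215789 to 71296243, on the plus strand. It was at 40.9, 40.1 and 43.6 CPM in P3 sham, at 36.8, 39.2 and 37.2 CPM in P3 PAB, at 51.8, 48.3 and 48.7 CPM in P7 sham and at 42.5 and 51.1 CPM in P7 PAB. The 3 P3 PAB libraries were below the 3 P3 sham libraries and all P7 sham libraries were above both. Per kb of exon it was the highest of the 10 genes in every group, with 18.3 ± 0.82 CPM per kb (SD, n = 3) at P3 in sham hearts and 20.7 ± 2.7 (SD, n = 2) at P7 in PAB hearts.

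The surface and structural genes of the mesothelium follow. Upk1b and Upk3b encode uroplakins, membrane proteins of the urothelial plaque that mesothelial cells also make. Upk1b, on chromosome 16 from 38773184 to 38800328 on the minus strand, had few counts, with 38 to 118 per library. It was at 2.79, 3.08 and 2.58 CPM in P3 sham, at 4.90, 3.64 and 3.94 CPM in P3 PAB, at 2.17, 1.85 and 2.26 CPM in P7 sham and at 1.70 and 1.92 CPM in P7 PAB. The 3 P3 PAB libraries were above all other libraries. Upk3b, on chromosome 5 from 136038496 to 136046487 on the plus strand, was at 16.8, 14.8 and 16.1 CPM in P3 sham, at 16.6, 11.3 and 16.8 CPM in P3 PAB, at 12.5, 9.86 and 14.4 CPM in P7 sham and at 5.33 and 8.62 CPM in P7 PAB. Both P7 PAB libraries were the lowest of the 11.

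Msln encodes mesothelin, a surface glycoprotein anchored to the mesothelial membrane, and lies on chromosome 17 from 25748613 to 25754378, on the minus strand. It was at 20.0, 19.8 and 13.4 CPM in P3 sham, at 24.9, 14.7 and 18.3 CPM in P3 PAB, at 12.3, 7.92 and 11.4 CPM in P7 sham and at 10.0 and 10.6 CPM in P7 PAB. Every P7 library was below every P3 library, and P7 PAB lay inside the range of P7 sham. Lrrn4 encodes a membrane protein with leucine-rich repeats and lies on chromosome 2 from 132868305 to 132880891, on the minus strand. It was at 7.81, 8.64 and 8.51 CPM in P3 sham, at 11.2, 10.0 and 12.7 CPM in P3 PAB, at 4.78, 2.87 and 4.15 CPM in P7 sham and at 1.79 and 2.56 CPM in P7 PAB. No 2 groups of Lrrn4 overlapped, and how many of all genes separate likewise was not counted.

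Krt19 encodes a keratin of simple epithelia, whose filaments line the mesothelial cell, and lies on chromosome 11 from 100140810 to 100148665, on the minus strand. It was at 5.02, 5.44 and 5.10 CPM in P3 sham, at 7.64, 5.54 and 7.27 CPM in P3 PAB, at 3.20, 3.50 and 3.77 CPM in P7 sham and at 5.94 and 5.91 CPM in P7 PAB. At both ages the PAB libraries were above the sham libraries, and the 3 P7 sham libraries were the lowest of all. With 1855 bp of exon it is the shortest of the 10 genes.

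The order of the genes by mean CPM per kb of exon began with Aldh1a2 and Tcf21 and ended with Bnc1 in all 4 groups. In P3 sham hearts it ran from Aldh1a2 through Tcf21 at 9.83, Msln at 5.78, Upk3b at 4.51, Tbx18 at 4.07, Krt19 at 2.80, Wt1 at 2.67, Lrrn4 at 2.24 and Upk1b at 1.35 to Bnc1 at 0.485 CPM per kb. Msln and Upk3b, Upk3b and Tbx18, Krt19 and Wt1, and Wt1 and Lrrn4 were neighbours whose libraries overlapped there. In P7 PAB hearts Lrrn4 was just above Bnc1, at 0.586 CPM per kb and below Upk1b at 0.868, and Krt19, at 3.19, came next after Msln, at 3.37, which followed Tcf21 in both PAB groups. No neighbours overlapped in the P7 PAB group, which has 2 libraries, and 4 pairs of neighbours overlapped in P3 PAB and 4 in P7 sham hearts.

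The effect of age in sham hearts was tested first, between P7 and P3. Of the 10 genes 3 fell and 0 rose, against 5.73% and 5.62% of all genes tested, and the median log2 fold change was -0.46 against 9.09e-04 over all genes. Bnc1 was 2.25 ± 0.472 CPM (SD, n = 3) at P3 and 0.856 ± 0.230 (SD, n = 3) at P7, a log2 fold change of -1.39 (SE 0.34, edgeR adjusted p = 0.0064). Lrrn4 fell from 8.32 ± 0.443 to 3.93 ± 0.975 CPM, 2.11-fold, with a log2 fold change of -1.08 (SE 0.16, edgeR adjusted p = 1.9e-04). Msln fell from 17.7 ± 3.76 to 10.5 ± 2.31 CPM, 1.69-fold, with a log2 fold change of -0.75 (SE 0.20, edgeR adjusted p = 0.0085). These 3 are a transcription factor and 2 membrane proteins.

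Below the fold threshold, Krt19 had a log2 fold change of -0.57 (edgeR adjusted p = 0.0070), Tbx18 of -0.50 (edgeR adjusted p = 5.7e-04) and Tcf21 of -0.22 (edgeR adjusted p = 0.046). Krt19 passed the fold threshold without P3 sham replicate 1 and without P7 sham replicate 3. The uroplakins did not pass, with -0.43 for Upk1b and -0.37 for Upk3b (edgeR adjusted p = 0.079 and 0.11). Wt1 and Aldh1a2 had the opposite sign, with 0.28 (edgeR adjusted p = 0.040) and 0.26 (edgeR adjusted p = 0.016). For the 0 genes called higher by edgeR, 2 had an unadjusted p under 0.05, Wt1 and Aldh1a2, and DESeq2 called 0. Scaling by the total count in place of TMM moved the median of all genes in this comparison to -0.31, so that 7 of the 10 were lower and 0 higher, with 2881 lower and 397 higher genes overall against 906 and 888 under TMM. Under that scaling Wt1 was at -0.029 and Aldh1a2 at -0.055, which is 0.28 and 0.25 above the median of all genes.

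The 3 P7 sham libraries all had high Xist and 1 of the 3 P3 sham libraries did. In that library, P3 sham replicate 1, Lrrn4 was at 7.81 CPM against 8.51 and 8.64 in the other P3 sham libraries and at most 4.78 at P7, and Msln was at 20.0 CPM against at most 12.3 at P7. Bnc1 was at 1.76 CPM in it, against 2.30 and 2.70 in the other P3 sham libraries and at most 1.01 at P7. With the Xist and Y class included Lrrn4 had a log2 fold change of -0.99 (edgeR adjusted p = 0.011), and Bnc1 no longer passed, with -1.03 (edgeR adjusted p = 0.16).

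In PAB hearts the same comparison of ages gave 6 lower genes and 0 higher, against 8.20% and 9.50% of all genes tested, with a median log2 fold change of -0.76 against 0.00306 over all genes. All 5 PAB libraries have low Xist, so this comparison does not contain the split seen between the sham groups. Lrrn4 fell from 11.3 ± 1.36 CPM (SD, n = 3) to 2.18 ± 0.546 (SD, n = 2), 5.23-fold, with a log2 fold change of -2.39 (SE 0.20, edgeR adjusted p = 1.1e-06). Bnc1 fell 4.14-fold, from 3.21 ± 0.740 to 0.791 ± 0.624 CPM, with a log2 fold change of -2.05 (SE 0.39, edgeR adjusted p = 6.9e-04). These are the genes with the largest falls among the 10, as they were in sham hearts. For Bnc1 the size rests on the P7 PAB libraries, since it was -1.38 without replicate 1 and -3.18 without replicate 2, and it passed both times.

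Both uroplakins fell in PAB hearts. Upk1b went from 4.16 ± 0.659 to 1.81 ± 0.155 CPM, 2.30-fold, with a log2 fold change of -1.20 (SE 0.20, edgeR adjusted p = 2.4e-04), and Upk3b from 14.9 ± 3.14 to 6.98 ± 2.33 CPM, 2.15-fold, with -1.10 (SE 0.21, edgeR adjusted p = 6.3e-04). Msln fell 1.87-fold, with a log2 fold change of -0.91 (SE 0.22, edgeR adjusted p = 0.0041). Tbx18 fell 1.52-fold, from 19.1 ± 0.991 to 12.5 ± 1.07 CPM, with -0.61 (SE 0.099, edgeR adjusted p = 2.0e-04), and at -0.52 without P7 PAB replicate 1, -0.56 without P3 PAB replicate 1 and -0.57 with the length trend removed it was under the fold threshold. The other 4 genes were not called. Krt19 had -0.20 (edgeR adjusted p = 0.29), Wt1 0.035 and Tcf21 0.071 (edgeR adjusted p = 0.83 and 0.56), and Aldh1a2 0.31 (edgeR adjusted p = 0.0076), below the fold threshold. With the length trend removed Krt19 was at -0.462 (edgeR adjusted p = 0.027) and Aldh1a2 at 0.110 (edgeR adjusted p = 0.31), both below the fold threshold. Of the 0 called higher by edgeR, 1 had an unadjusted p under 0.05, Aldh1a2, and DESeq2 called 0. With scaling by the total count the median of all genes was -0.25, 6 of the 10 were lower and 0 higher, 3068 genes were lower and 645 higher overall against 1296 and 1501 under TMM, and Wt1 and Tcf21 turned to -0.21 and -0.18 while Aldh1a2 was at 0.062.

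The plot of fold changes sets the 4 comparisons side by side. The comparisons of PAB with sham and of P7 with P3 share libraries, since each of the 4 groups enters 2 of them.

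**Figure D2:**
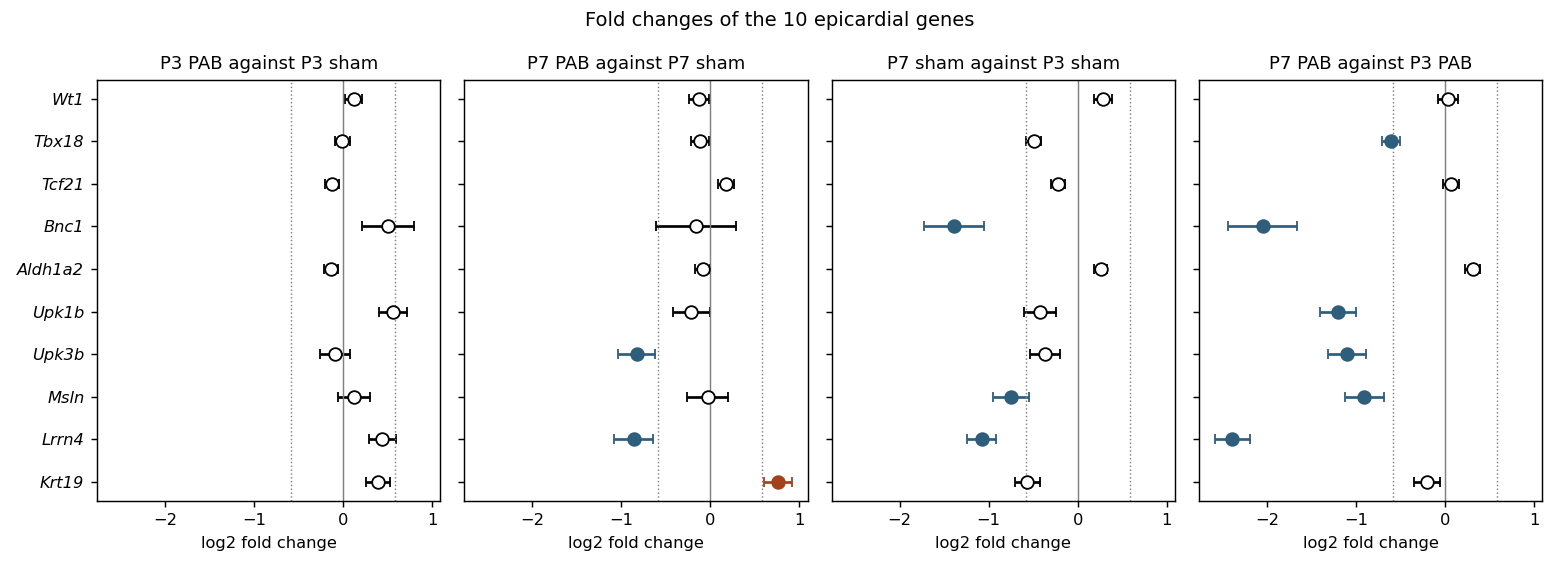
Log2 fold change of each of the 10 epicardial genes with its SE in 4 comparisons, from edgeR's fit of all 11 libraries. Filled points are called, red for higher and blue for lower, and dotted lines mark a fold change of 1.5. Bnc1, Lrrn4 and Msln are called lower from P3 to P7 in both sham and PAB hearts, and Krt19 is called higher with PAB at P7.

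At P3 no epicardial gene differed between PAB and sham hearts past the threshold, where 0.108% of all genes were called higher and 0.0190% lower. At an unadjusted p under 0.05 edgeR counted 3 higher and 0 lower genes among the 10, and DESeq2 called 0 in either direction. The 3 were Upk1b with a log2 fold change of 0.56 (SE 0.16, edgeR adjusted p = 0.31), Lrrn4 with 0.44 (SE 0.15, edgeR adjusted p = 0.39) and Krt19 with 0.39 (SE 0.13, edgeR adjusted p = 0.40). In each of them all 3 PAB libraries were above all 3 sham libraries, and none passed the correction. The share of all genes that separate in this way was not counted. Bnc1 had 0.51 with an SE of 0.29 (edgeR adjusted p = 0.70), and its libraries overlapped. Aldh1a2 had -0.14 (SE 0.075, edgeR adjusted p = 0.68), with every PAB library below every sham library. The other 5 genes lay between -0.12 for Tcf21 and 0.12 for Msln. The median of the 10 was 0.12, against -0.00102 over all genes.

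At P7 1 epicardial gene was higher and 2 were lower in PAB than in sham hearts, against 9.63% and 8.59% of all genes tested. Krt19 was 3.49 ± 0.285 CPM (SD, n = 3) in sham and 5.93 ± 0.0185 (SD, n = 2) in PAB hearts, 1.69-fold higher, with a log2 fold change of 0.76 (SE 0.16, edgeR adjusted p = 0.0012). Upk3b was 12.3 ± 2.29 CPM in sham and 6.98 ± 2.33 in PAB hearts, 1.78-fold lower, with -0.83 (SE 0.21, edgeR adjusted p = 0.0052). Lrrn4 was 3.93 ± 0.975 CPM in sham and 2.18 ± 0.546 in PAB hearts, 1.82-fold lower, with -0.86 (SE 0.22, edgeR adjusted p = 0.0056). The groups did not overlap for any of these 3 genes, and the share of all genes for which this holds was not counted. Each of the 3 calls was lost in at least 1 alternative. With the Xist and Y class included Krt19 was at 0.69 and Upk3b at -0.71, and neither passed (edgeR adjusted p = 0.086 and 0.16), while Lrrn4 was at -0.996 (edgeR adjusted p = 0.048). P3 sham is the only group with both classes, so the class term was estimated from that group alone. It cannot separate the operation from the sex of the pups at P7. Without P7 PAB replicate 1 Upk3b was at -0.51 and Lrrn4 at -0.62 (edgeR adjusted p = 0.12 and 0.10), and with each library's trend with gene length removed Krt19 was at 0.47, below the fold threshold (edgeR adjusted p = 0.036).

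The other 7 genes were not called at P7. Tcf21 had a log2 fold change of 0.17 (edgeR adjusted p = 0.14) with both PAB libraries above sham, and its sign turned with the length trend removed and with the Xist and Y class included. Wt1 had -0.13, Tbx18 -0.12 and Aldh1a2 -0.085 (edgeR adjusted p = 0.37, 0.36 and 0.43). With the length trend removed Aldh1a2 was at -0.315 (edgeR adjusted p = 0.0074), below the fold threshold. Msln had -0.032 with an SE of 0.23 and Bnc1 -0.16 with an SE of 0.45 (edgeR adjusted p = 0.93 and 0.81), and the 2 P7 PAB libraries of Bnc1 held 8 and 25 counts. Upk1b had -0.21 (edgeR adjusted p = 0.45). The median of the 10 was -0.12, against -0.00374 over all genes.

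The PAB effect at P7 was compared with that at P3 by an interaction term. Of the 10 genes 2 were lower and 0 higher, against 5.68% and 6.53% of all genes. Lrrn4 had a difference of -1.31 on the log2 scale (SE 0.27, edgeR adjusted p = 0.0030), from an effect of 0.44 at P3 to -0.86 at P7, and it passed in every alternative tried, with -1.57 to -1.06. Upk1b had a difference of -0.77 (SE 0.27, edgeR adjusted p = 0.047), but lost the call in 14 of 20 alternatives, with an adjusted p of 0.019 to 0.16. Upk3b missed the threshold with -0.74 (SE 0.27, edgeR adjusted p = 0.057), with a range of 0.014 to 0.33 over its alternatives. Without P7 PAB replicate 2 both Upk3b, with -1.11, and Bnc1, with -1.79, were lower (edgeR adjusted p = 0.014 and 0.041). Upk3b was also called without P3 PAB replicate 2, without P7 sham replicate 2, with the length trend removed (-0.83, edgeR adjusted p = 0.044) and in an unfiltered fit with bias-adjusted residuals (edgeR adjusted p = 0.040), and DESeq2 called Lrrn4 and Upk3b but not Upk1b. The ranges leave aside the planned unfiltered fit, whose prior on the variance was infinite. Of the 0 called higher by edgeR 1 had an unadjusted p under 0.05, Tcf21, with 0.29 (edgeR adjusted p = 0.087), and DESeq2 called 0. With total counts as the scale 1 gene was lower, Lrrn4, with 1314 higher and 679 lower genes overall against 1033 and 898 under TMM. For Krt19 the difference was 0.37 (SE 0.21, edgeR adjusted p = 0.21), so that its PAB effects of 0.39 at P3 and 0.76 at P7 were not shown to differ.

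Lrrn4 and Upk3b, the genes called lower in P7 PAB hearts, are shown with the DNA around their starts, from 250 bases before to 50 bases after, taken from RefSeq on GRCm38.p6. Promoters of 6 of the 10 genes were in that table, those of Aldh1a2, Bnc1, Lrrn4, Tbx18, Tcf21 and Upk3b. The first line is Lrrn4, chr2:132880813-132881112, minus strand, and the next Upk3b, chr5:136038246-136038545, plus strand, both 5′ to 3′. Capitals mark GGAATG, the letters bound by TEAD factors, on either strand.
Lrrn4: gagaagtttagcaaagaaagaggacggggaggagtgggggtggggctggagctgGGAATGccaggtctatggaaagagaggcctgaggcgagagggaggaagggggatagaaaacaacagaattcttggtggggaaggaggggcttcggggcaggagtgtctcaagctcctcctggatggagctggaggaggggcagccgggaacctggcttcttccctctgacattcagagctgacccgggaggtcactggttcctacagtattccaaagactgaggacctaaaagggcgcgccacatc
Upk3b: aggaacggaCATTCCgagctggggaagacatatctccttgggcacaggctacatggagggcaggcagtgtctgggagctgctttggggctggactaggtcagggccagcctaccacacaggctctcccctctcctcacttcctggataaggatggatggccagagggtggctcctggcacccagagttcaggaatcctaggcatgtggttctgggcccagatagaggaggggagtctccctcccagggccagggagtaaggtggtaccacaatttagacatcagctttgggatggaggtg
The motif lies on the printed strand of the Lrrn4 sequence with its first base at position -196 from the start, and on the strand complementary to the printed Upk3b sequence at position -241. It was present in 2 of the 6 promoters and in 14.7% of 32851 promoters of the same length. The letters GCGGGGGCG, bound by WT1 and EGR proteins, were in 0 of the 6 and in 2.91% of all. The T-box letters AGGTGTGA were in 0 of the 6 and in 1.28% of all, and the E-box CAGCTG in 0 of the 6 and in 16.3% of all, each searched on both strands. As GGAATG was the only one found, no motifs overlapped. GC content was 58% for Lrrn4 and 58.7% for Upk3b, 83.3% for Bnc1, 78% for Aldh1a2, 53.3% for Tcf21 and 51.7% for Tbx18, against a median of 52.7% over all promoters.

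The 10 genes did not move as 1 block. Over the 11 libraries the Pearson correlation of log2 CPM for the 45 pairs of genes ranged from -0.818 for Upk1b with Aldh1a2 to 0.921 for Tbx18 with Lrrn4, with a median of 0.373. Wt1 and Aldh1a2 stood against the membrane proteins, Tbx18 and Bnc1. These values hold the differences between the groups, and after each group's mean was subtracted the range was -0.678, for Wt1 with Krt19, to 0.901, for Upk1b with Msln, with a median of 0.331 and 33 of 45 pairs above 0. Within a library all genes share its depth and preparation, the 2 P7 PAB libraries mirror each other once their mean is removed, and without either of them the median was 0.194. In P7 PAB replicate 1 only 1 of the 10 genes, Krt19, lay above its group mean, and in P7 PAB replicate 2 9 of the 10 did. In the P7 sham group replicate 2 had 2 genes above the mean, and replicates 1 and 3 had 7 and 8.

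**Figure D3:**
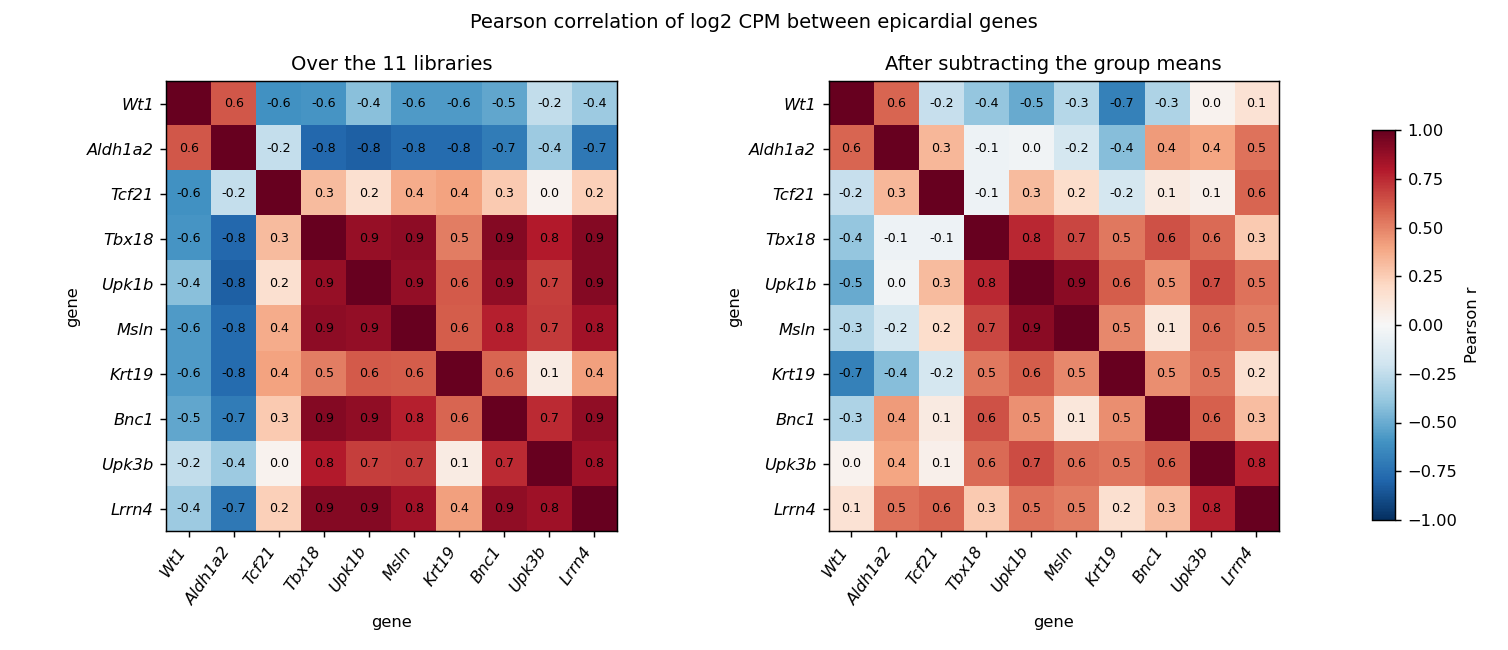
Pearson correlation of log2 CPM between the 10 epicardial genes, over the 11 libraries and after each group's mean was subtracted. Colour and printed value give r, from -1 in blue to 1 in red. Wt1 and Aldh1a2 are negative with most other genes over all libraries, where Tbx18 and Lrrn4 reach 0.921, and Upk1b and Msln reach 0.901 after the group means are removed.

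A second list held 18 further epicardial and mesothelial genes, of which 17 were tested and Muc16 was not analysed here. From P3 to P7 in sham hearts 6 of the 17 were lower and 0 higher by edgeR, against 5.73% and 5.62% of all genes, with a median log2 fold change of -0.40 against 9.09e-04 (3 higher at an unadjusted p under 0.05, 0 by DESeq2). The fall was largest on this list for C3, the central complement protein, which went from 197 ± 40.1 to 45.8 ± 25.3 CPM (log2 fold change -2.11, edgeR adjusted p = 1.0e-04), and for Dmkn, dermokine, which went from 1.16 ± 0.0881 to 0.275 ± 0.207 CPM on 1 to 32 counts (log2 fold change -2.11, edgeR adjusted p = 0.0021). Cldn15, a claudin, and Alcam, an adhesion molecule, fell by 0.90 and 0.71 on the log2 scale (edgeR adjusted p = 4.6e-04 and 9.9e-04), Alcam not passing with the Xist and Y class included (edgeR adjusted p = 0.084). In PAB hearts 8 were lower and 2 higher, against 8.20% and 9.50% of all genes, with a median of -0.48 against 0.00306. C3 fell from 275 ± 37.8 to 35.4 ± 14.2 CPM (log2 fold change -2.96, edgeR adjusted p = 1.8e-05). Gpm6a, a neuronal and mesothelial membrane glycoprotein, fell from between 7.40 and 10.2 CPM to 3.25 and 3.45 CPM (log2 fold change -1.44, edgeR adjusted p = 7.1e-06). Krt7, a keratin, had -1.69 (edgeR adjusted p = 1.7e-04). Under scaling by the total count 9 of the 17 were lower in each of the comparisons of age and 0 higher. Of the 15808 genes tested, 2881 were then lower and 397 higher in sham hearts, and 3068 and 645 in PAB hearts. The 2 genes higher in PAB hearts under TMM, Krt8 and Krt18, were lost under that scaling. They were also lost with the length trend removed, with that and the replicate block, and without P7 PAB replicate 1.

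Krt8 and Krt18 pair to form the keratin filaments of simple epithelia, and Krt8 is also the usual partner of Krt19. They were the 2 genes of this list that were higher in PAB hearts, at P3 and at P7, against 0.108% and 9.63% of all genes. At P3 Krt8 was 3.53 ± 0.707 CPM (SD, n = 3) in sham and 8.75 ± 1.76 (SD, n = 3) in PAB hearts (log2 fold change 1.30, edgeR adjusted p = 0.012), and Krt18 7.49 ± 1.11 and 17.7 ± 1.99 CPM (log2 fold change 1.24, edgeR adjusted p = 0.0053). Leaving out P3 sham replicate 3, P3 PAB replicate 1 or P3 PAB replicate 2 took the Krt8 call away, with an adjusted p of 0.060, 0.074 and 0.061. At P7 Krt8 was 3.92 ± 0.931 CPM in sham and 15.4 ± 3.07 (SD, n = 2) in PAB hearts (log2 fold change 1.99, edgeR adjusted p = 4.7e-06), and Krt18 10.3 ± 1.46 and 30.4 ± 6.80 CPM (log2 fold change 1.57, edgeR adjusted p = 2.8e-06). Both keratins passed at P7 in every alternative, and in each of the comparisons the PAB libraries did not overlap with sham. No gene of the list was lower at P3 by edgeR or DESeq2, and 1 was at an unadjusted p under 0.05.

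At P7 4 genes of the list were lower in PAB hearts, against 8.59% of all genes, and the median of the 17 was -0.024 against -0.00374. Rspo1, a secreted activator of Wnt signalling, was 2.03 ± 0.0879 CPM in sham and 0.782 ± 0.427 in PAB hearts, with 11 and 22 counts in the PAB libraries (log2 fold change -1.39, edgeR adjusted p = 0.0031, and 0.067 without P7 PAB replicate 1). Podxl, the sialomucin podocalyxin, which endothelial cells also make, was 198 ± 5.86 and 128 ± 3.61 CPM (log2 fold change -0.64, edgeR adjusted p = 1.0e-05), and with the length trend removed it was at -0.57, below the fold threshold. Gpm6a had -0.63 (edgeR adjusted p = 0.0061), below the fold threshold at -0.58 without P7 PAB replicate 2, and Efemp1, a matrix protein, -0.70 (edgeR adjusted p = 0.020, but 0.26 without P7 PAB replicate 1 and 0.24 with the Xist and Y class included). The interaction term called Gpm6a, Rspo1 and Podxl lower and Alcam higher, against 5.68% and 6.53% of all genes. Rspo1 lost this call without P7 PAB replicate 1 (edgeR adjusted p = 0.12) and Podxl with total counts as the scale, where it was at -0.58. Alcam lost it in 4 of 20 alternatives, with the Xist and Y class included (edgeR adjusted p = 0.20) and without P3 sham replicate 2, P7 sham replicate 2 or P7 PAB replicate 2 (edgeR adjusted p = 0.058, 0.051 and 0.069). In the plot of the 17 further genes Krt8 and Krt18 are the genes called higher with PAB.

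**Figure D4:**
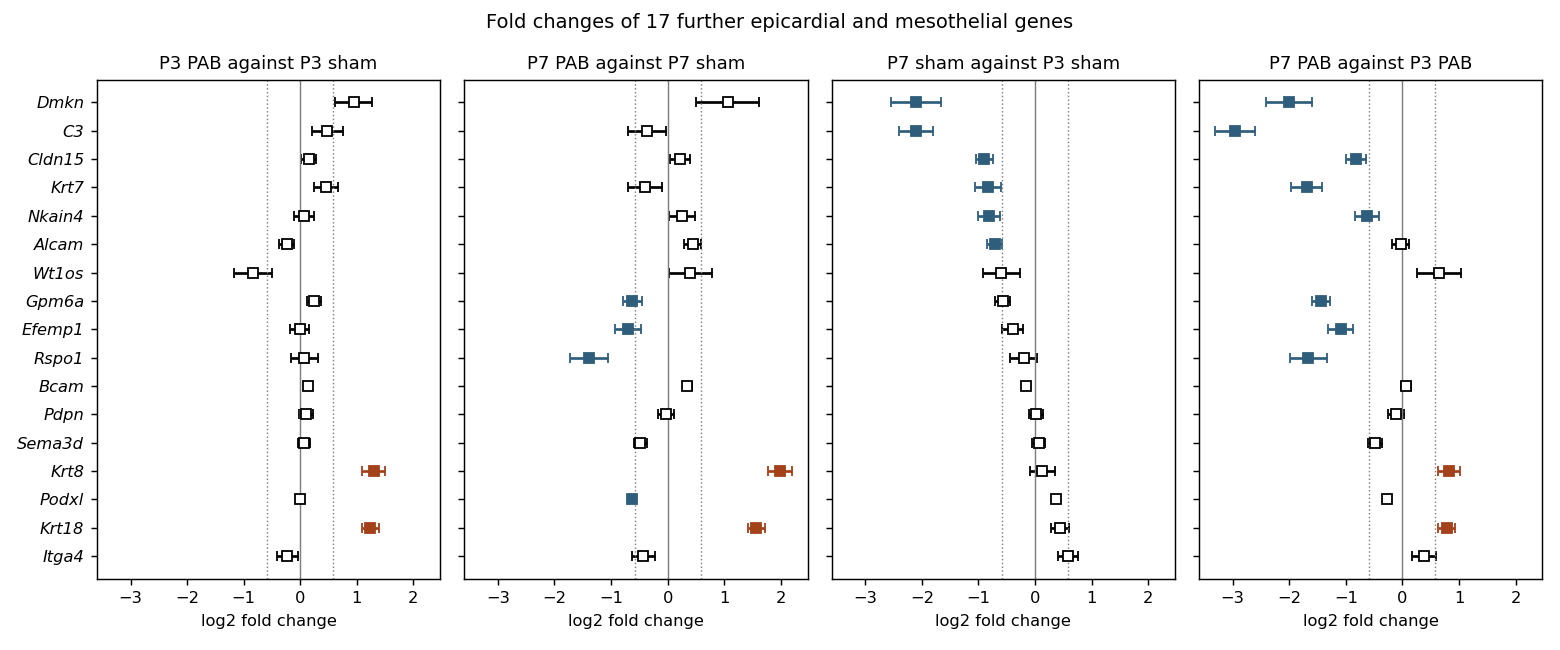
Log2 fold change with its SE of 17 further epicardial and mesothelial genes in 4 comparisons, ordered by the change from P3 to P7 in sham hearts. Filled squares are called, red for higher and blue for lower, and dotted lines mark a fold change of 1.5. Krt8 and Krt18 are called higher in PAB hearts at both ages, and C3 and Dmkn are the lowest from P3 to P7 in sham hearts.

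Retinoic acid is the product of Aldh1a2, and 13 of 18 genes of its pathway were tested. At P3 0 were called by edgeR or DESeq2, and 1 in each direction had an unadjusted p under 0.05. At P7 2 were higher and 2 lower in PAB hearts, against 9.63% and 8.59% of all genes, with a median log2 fold change of -0.10 against -0.00374. Of the higher genes, Cyp26a1, which degrades retinoic acid, was 0.472 ± 0.195 CPM in sham and 1.27 ± 0.436 in PAB hearts on 7 to 32 counts (log2 fold change 1.42, edgeR adjusted p = 0.0070), a call lost in 3 of 20 alternatives, its adjusted p reaching 0.10 when P7 PAB replicate 2 was left out. The receptors Rxrg and Rarg were lower, with -0.72 and -0.59 (edgeR adjusted p = 0.0011 and 0.0015), and Rarg was below the fold threshold in 6 of 21 alternatives, at -0.37 without P7 PAB replicate 1. From P3 to P7 in sham hearts Rxrg, Dhrs3, a retinaldehyde reductase, and Rarg were higher, with 1.59, 0.93 and 0.72, and 0 were lower by edgeR and DESeq2, against 5.62% and 5.73% of all genes (5 lower at an unadjusted p under 0.05). Under scaling by the total count 2 were higher and 3 lower, against 397 and 2881 of the 15808 genes tested. In PAB hearts 2 were higher with age, against 9.50% of all genes, Rxrg with 1.28 and Cyp26a1 with 1.10 (edgeR adjusted p = 2.3e-05 and 0.024). The Cyp26a1 call was lost in 8 of 20 alternatives, DESeq2 among them, its adjusted p reaching 0.26 when P7 PAB replicate 2 was left out. By the interaction term 1 gene was higher and 1 lower, against 6.53% and 5.68% of all genes, the latter Rarg with a difference of -0.68 (edgeR adjusted p = 0.0091, and 0.061 without P7 PAB replicate 1).

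Of the 15 genes of the epithelial to mesenchymal transition, 3 were lower and 0 higher in P7 PAB hearts, against 8.59% and 9.63% of all genes, with a median of -0.29 against -0.00374 over all genes (1 higher at an unadjusted p under 0.05, 0 by DESeq2). They were Zeb2, a transcription factor of the transition, at 60.0 ± 7.23 CPM in sham and 32.7 ± 1.74 in PAB hearts (log2 fold change -0.88, edgeR adjusted p = 7.9e-06), Tgfbr3, the TGF-beta co-receptor betaglycan, with -0.73, and Pdgfra, the receptor of the epicardial fibroblast lineage, with -0.63. With each library's trend with gene length removed Zeb2 was at -0.39 and Pdgfra at -0.37, both below the fold threshold. Tgfbr3 was below it at -0.57 without P7 PAB replicate 1 and at -0.55 with the length trend removed and the replicate block. Sox9 was the 1 gene called from P3 to P7, lower in sham with -0.59 and in PAB hearts with -0.73 (edgeR adjusted p = 0.0017 and 7.1e-04), against 5.73% and 8.20% of all genes called lower, and in sham hearts it fell below the fold threshold in 7 of 21 alternatives. With total counts as the scale 2 genes were lower in sham and 4 in PAB hearts, against 2881 and 3068 of the 15808 genes tested. At P3 edgeR and DESeq2 called 0, with 1 higher and 2 lower at an unadjusted p under 0.05. The interaction term called 2 lower, against 5.68% of all genes, Zeb2 with a difference of -0.73 and the growth factor Tgfb1 with -0.71 (edgeR adjusted p = 0.0011 and 0.018). Zeb2 was at -0.29 with the length trend removed, and Tgfb1 lost the call without P7 PAB replicate 1 (edgeR adjusted p = 0.099) and with the Xist and Y class included (edgeR adjusted p = 0.10). It called 0 higher, as did DESeq2, with 1 at an unadjusted p under 0.05.

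Among 13 growth factors and receptors of the epicardium, 12 were tested and Fgf20 had 0 counts in all libraries. At P3 0 were called by edgeR or DESeq2, and 0 had an unadjusted p under 0.05. At P7 Tmsb4x, thymosin beta 4, was higher in PAB hearts, at 495 ± 9.73 against 277 ± 21.3 CPM (log2 fold change 0.84, edgeR adjusted p = 3.5e-06), and Fgf16 lower, with -0.68 (edgeR adjusted p = 0.0011), 1 gene in each direction against 9.63% and 8.59% of all genes. With the length trend removed Tmsb4x was at 0.48, below the fold threshold, and with the Xist and Y class included Fgf16 was at -0.52 (edgeR adjusted p = 0.14). From P3 to P7 in sham hearts Cxcl12, a chemokine, and Fgf16 were higher, with 0.88 and 0.61, and Fgf9 lower, with -0.62, against 5.62% and 5.73% of all genes. Fgf16 lost this call in 4 of 21 alternatives and Fgf9 in 2. With total counts as the scale 0 were higher and 4 lower, against 397 and 2881 of the 15808 genes tested. In PAB hearts Tmsb4x was higher with age, with 0.72, and Igf1r lower, with -0.90, against 9.50% and 8.20% of all genes. With the length trend removed they were at 0.38 and -0.55, both below the fold threshold. Under scaling by the total count 0 were higher and 3 lower, against 645 and 3068 of the 15808 genes tested. By the interaction term Tmsb4x was higher, with a difference of 0.82, and Fgf16 and Cxcl12 lower, with -0.65 and -0.62 (edgeR adjusted p = 2.7e-04, 0.020 and 0.0025), against 6.53% and 5.68% of all genes. Tmsb4x was at 0.51, below the fold threshold, with the length trend removed, and Fgf16 lost the call in 6 of 20 alternatives and Cxcl12 in 7, both of them without P7 PAB replicate 1 and under scaling by the total count.

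Tissue other than ventricle was looked for by its markers. The 8 lung markers summed to 1.24 to 3.20 CPM, with Scgb1a1 and Nkx2-1 at 0 in every library, the 8 thymus markers to 0.335 to 1.43 CPM with Rag2 at 0, and the 7 skeletal muscle markers to 0.486 to 1.66 CPM with Myf5 at 0. The lung sums were 1.34 to 1.63 CPM in P7 sham and 1.79 to 3.20 CPM in P7 PAB hearts. The 1 lung marker tested was called higher with PAB at P7, with a log2 fold change of 0.798, against 9.63% of all genes. The 6 atrial markers summed to 94.0 to 142 CPM in P7 sham and 186 to 214 CPM in P7 PAB hearts, and to 115 to 199 and 105 to 255 CPM in P3 sham and P3 PAB hearts. Of these 6, 1 was called higher with PAB at P7. The 8 fibroblast markers summed to 6009 to 6094 CPM in P7 sham and 4634 to 5512 CPM in P7 PAB hearts, against 4666 to 5182 CPM in P3 sham, and 1 of the 8 was called lower at P7, against 8.59% of all genes. The sums of the 7 smooth muscle and pericyte markers, at 1363 to 1498 CPM in P7 sham and 1047 to 1074 CPM in P7 PAB hearts, did not overlap either, but the markers went both ways, with Abcc9 called lower and Tagln and Cnn1 higher. The 7 endothelial markers summed to 1369 to 1420 CPM in P7 sham and 1124 to 1210 CPM in P7 PAB hearts, although Egfl7 was called higher. The 6 macrophage markers summed to 85.8 to 109 CPM in P7 sham and 69.7 to 77.2 CPM in P7 PAB hearts, with Mrc1 called lower, and the 5 erythroid markers to 1719 to 2327 CPM in P7 sham and 2651 to 2968 CPM in P7 PAB hearts. The 6 brown fat markers summed to 19.0 to 24.7 CPM in P7 sham and 37.6 to 41.5 CPM in P7 PAB hearts, nearly all from Cidea, and Otop1 was at 0. The 1 brown fat marker tested was called higher with PAB at P7, with a log2 fold change of 0.902. The 10 epicardial genes themselves summed to 149 to 154 CPM in P3 sham, 146 to 163 in P3 PAB, 127 to 143 in P7 sham and 119 to 137 CPM in P7 PAB hearts. The part of these cell types or tissues in the P7 values of Krt19, Upk3b and Lrrn4 was not tested.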

How the data were processed

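The authors deposited raw counts, 1 column per library and 1 row per gene, in a single table. Reads were aligned to GRCm38 with STAR 2.5.2b and the Gencode annotation, per the study's methods and the submitters' processing notes. The counting tool, strand setting and annotation release are not given in the sources used here. Depth was 19274045 to 26820228 counts per library, and chi-square per gene between replicates was 4.17 to 12.2, so no 2 replicates were alike within sampling noise. Nothing in the labels says that replicates came from separate litters, so p-values measure the spread between these libraries.

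Tests used edgeR 4.0.16 in R 4.3.3 (TMM, filterByExpr, quasi-likelihood test) on all 11 libraries in 4 groups, so that the 2 libraries of P7 PAB borrow their spread from the others. PAB was compared with sham at each age, P7 with P3 for each operation, and the difference of these effects was tested as an interaction. Genes called changed had a fold change of 1.5 or more and a Benjamini-Hochberg adjusted p no higher than 0.05. DESeq2 1.42.0, the tool of the study, was an alternative. Correlations used log2 CPM with a prior count of 2 and carry no p. Exonic lengths, positions and overlaps came from GENCODE M21, promoters from RefSeq. Steps were tested on simulated data, and plots made in matplotlib 3.10.9 under Python 3.11.15.

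Named genes are the 10 members, up to 4 called genes of each list and comparison by lowest p, the 10 other genes that vary most like the members, and Xist and Ddx3y. Gpm6a and Efemp1 at P7 were named after their values were seen, to complete a count of 4, and 1 called gene is not reported here. The members, lists, tests and alternatives were chosen with earlier results of these data known. Alternatives were RLE size factors, total count scaling, no filter, a strict filter (a mean of 50 counts, and 10 in each library of some group), DESeq2, no fold threshold, unadjusted p, fits of the 2 groups compared, a replicate block, the length trend removed (lowess, span 0.3), a term for the Xist and Y class, and leaving out each library. Replicate numbers were not taken as pairs. Added after seeing the data were the unfiltered fit with bias-adjusted residuals, because the planned one had an infinite prior, and the length trend with the replicate block.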

Additional observations from a re-analysis of the deposited data

Results flagged for a closer look

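The PAB effect differed between the ages for 2 epicardial genes by the test of the interaction term. For Lrrn4 the effect at P7 minus that at P3 was -1.31 on the log2 scale (SE 0.27, edgeR adjusted p = 0.0030). Its PAB effect was 0.44 at P3, which did not pass on its own (edgeR adjusted p = 0.39), and -0.86 at P7. For Upk1b the difference was -0.77 (SE 0.27, edgeR adjusted p = 0.047), from 0.56 to -0.21, and neither of these single effects passed the threshold on its own. Upk1b rests on 38 to 118 counts per library. At P7 the operation and the Xist and Y class of the libraries cannot be told apart. With that class as a term Lrrn4 was at -1.40 (edgeR adjusted p = 0.012) and Upk1b at -0.79 (edgeR adjusted p = 0.13). The term is estimated from the P3 sham libraries alone, so a call that passes with it does not separate operation from class at P7. No group of the series has more than 3 libraries, so a single library far from its group was not tested for.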

How the results depend on the processing

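For the 10 epicardial genes, 1185 values were recomputed under the alternatives, of which 1107 kept their direction and their side of the threshold, 25 lost a call, 21 gained one and 32 changed sign. Counts of called genes moved as follows. In P7 PAB against P7 sham hearts the 1 higher gene, Krt19, became 0 with the length trend removed, with that and the replicate block together, and with the Xist and Y class included. The 2 lower genes became 1 with the class as a term, and without 1 library ranged from 0, without P7 PAB replicate 1, to 2. In sham hearts from P3 to P7 the 3 lower genes became 7 with total count scaling and 6 with no fold threshold, and the 0 higher became 2 with no fold threshold. In PAB hearts the 0 higher became 1 with no fold threshold, while the 6 lower stayed within 1.5 times in every alternative. For the interaction the 2 lower became 1 with total count scaling, with the replicate block and with the class as a term, 3 with the length trend removed and with unadjusted p, and ranged from 1 to 3 without 1 library. The median correlation of 0.331 ranged from 0.194, without either P7 PAB library, to 0.409.

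Values that changed sign, none of them called, were these. With the class as a term they were Tbx18 at P3 (0.0155), Wt1 (0.0914), Tcf21 (-0.0247) and Msln (0.228) at P7, and Msln in the interaction (0.0149). With the length trend removed they were Tcf21 at P7 (-0.0465), Tcf21 with age in PAB hearts (-0.118) and Aldh1a2 in the interaction (-0.144), and with the replicate block added these were -0.0373, -0.108 and -0.133. With total count scaling Wt1 (-0.0289) and Aldh1a2 (-0.0549) with age in sham hearts and Wt1 (-0.213) and Tcf21 (-0.178) with age in PAB hearts turned. Without 1 library the range crossed 0 for Tbx18 (-0.0741 to 0.0299), Upk3b (-0.187 to 0.0706) and Msln (-0.104 to 0.282) at P3. It did so for Msln (-0.197 to 0.0886), Aldh1a2 (-0.219 to 0.0428) and Bnc1 (-1.29 to 0.512) at P7, for Wt1 with age in PAB hearts (-0.0296 to 0.0982), and in the interaction for Msln (-0.318 to 0.0724), Aldh1a2 (-0.0832 to 0.179) and Bnc1 (-1.79 to 0.00613). The cause was not tested.

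Replicate numbers are shared by the groups but were not taken as pairs, since the deviations from group means of same-numbered libraries correlated at -0.0998 to 0.144, with 1 of 15 pairs above 0.1. With the replicate block Upk1b lost its interaction call (-0.79, edgeR adjusted p = 0.062), and no other count of called epicardial genes moved. Bnc1 and Upk1b have few counts, which limits what their tests can detect.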

Other observations

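After group means were removed, the 10 other tested genes that varied most like the mean of the epicardial genes over the 11 libraries were ENSMUSG00000110344 (Pearson r = 0.954), Adat3 and Ipo4 (both 0.951), Slc3a2 (0.949), Zc3h18 (0.944), D630045J12Rik (0.941), Itpr3 and Zfhx2 (both 0.935), and Ano8 and Cluh (both 0.928), out of 15798 ranked. None is on the lists of epicardial genes, retinoic acid, the epithelial to mesenchymal transition or growth factors. Their mean levels ran from 6.73 CPM for D630045J12Rik to 340 CPM for Cluh. Within a library all genes share its depth and preparation, and the values are a description with no test.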
